A study of Homo sapiens with 8 samples.

Results

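FGFR3, NSD2 and the enzymes that methylate lysine 36 of histone H3 (H3K36) were followed in 2 human cell lines with and without Zalypsis, labelled OPM1 and MM1S, which are names of myeloma lines. The OPM1-labelled arrays had less plasma cell and more B cell marker signal than MM1S, as set out below. The identity of these cells was not tested, and OPM1 is used as a label only. The members were FGFR3, NSD2, the related methyltransferases NSD1, NSD3 and SETD2, and LETM1 and TACC3, which lie beside FGFR3 and NSD2 on chromosome 4. They were chosen by name, through every probe set that the platform's gene table gives to these symbols or their older names, which made 26 of the 41091 probe sets with a single gene symbol and 7 of 19775 genes. Zalypsis is a DNA-binding alkaloid of marine origin. The 4 groups were OPM1-labelled cells with Zalypsis, untreated OPM1-labelled cells, MM1S cells with Zalypsis and untreated MM1S cells, all of them established lines and each with 2 arrays. Zalypsis was given at 5 nM, and treated cells were taken once 15 to 20% were dying. Each line is a single line, and the labels name no separate cultures for the pair of arrays in a group, so a p-value here speaks only of array-to-array spread, possibly technical.

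Multiple myeloma is a cancer of plasma cells. In the t(4;14) translocation the immunoglobulin heavy chain locus is joined to 4p16.3, and its enhancers then drive NSD2 and, on the other derivative chromosome, the receptor tyrosine kinase FGFR3. OPM1 has been described as a line with this translocation and MM1S as a line with t(14;16), which acts on MAF. NSD2, NSD1 and NSD3 add up to a dimethyl mark to H3K36, and SETD2, which travels with elongating RNA polymerase II, makes the trimethyl mark. LETM1 is a cation exchanger of the inner mitochondrial membrane, and TACC3 binds spindle microtubules in mitosis.

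The 250 bases before the annotated start of FGFR3, NSD2, SETD2 and TACC3 are shown because NSD2 and SETD2 were called lower with Zalypsis in both lines, whereas FGFR3 and TACC3 were called in neither line. They are written 5′ to 3′ on the gene's strand from RefSeq, assembly GRCh38.p14, which had such a sequence for 5 of the 7 members. Capitals mark the GC box (GGGCGG or CCGCCC), the CCAAT box (CCAAT or ATTGG) and the CHR motif (TTTGAA or TTCAAA), each searched on both strands with overlaps between matches kept.
NSD2 (chr4:1871143-1871392, plus strand): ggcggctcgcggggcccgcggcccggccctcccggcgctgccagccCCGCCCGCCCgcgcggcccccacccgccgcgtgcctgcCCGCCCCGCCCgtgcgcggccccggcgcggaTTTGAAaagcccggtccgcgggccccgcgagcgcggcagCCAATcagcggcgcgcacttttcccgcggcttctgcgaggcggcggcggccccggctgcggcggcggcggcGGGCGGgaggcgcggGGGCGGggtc
SETD2 (chr3:47164114-47164363, minus strand): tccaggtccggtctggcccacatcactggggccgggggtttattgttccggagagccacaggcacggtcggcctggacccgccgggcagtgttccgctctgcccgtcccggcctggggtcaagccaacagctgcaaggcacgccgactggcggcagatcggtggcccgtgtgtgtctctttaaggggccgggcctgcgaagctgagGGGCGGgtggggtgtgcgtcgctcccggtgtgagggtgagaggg
FGFR3 (chr4:1793043-1793292, plus strand): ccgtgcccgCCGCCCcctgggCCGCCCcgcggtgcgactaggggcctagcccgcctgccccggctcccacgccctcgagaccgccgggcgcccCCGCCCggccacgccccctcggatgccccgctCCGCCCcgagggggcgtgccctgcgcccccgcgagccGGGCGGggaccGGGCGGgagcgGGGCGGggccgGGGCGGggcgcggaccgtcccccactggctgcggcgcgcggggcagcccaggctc
TACC3 (chr4:1720381-1720630, plus strand): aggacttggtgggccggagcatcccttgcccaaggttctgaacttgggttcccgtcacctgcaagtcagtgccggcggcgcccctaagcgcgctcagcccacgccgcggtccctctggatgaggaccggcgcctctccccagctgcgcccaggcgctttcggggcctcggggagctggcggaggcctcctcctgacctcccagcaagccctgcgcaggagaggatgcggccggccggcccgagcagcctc
The NSD2 window held 6 GC boxes, 1 CCAAT box and 1 CHR motif, and its G and C content was 86%. The SETD2 window held 1 GC box at 69.6% G and C, the FGFR3 window 8 GC boxes at 86.8%, and the TACC3 window none of these motifs at 71.6%. Among all 35116 promoter windows of this length, 42.6% held a GC box, 32% a CCAAT box and 13.3% a CHR motif, and the median G and C content was 58%. A match describes letters only, and no binding was measured.

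Values below are the deposited signals, on a linear scale, and their median over all probe sets lay between 23.0 and 24.8 on every array. Changes are differences of log2(signal + 32), which understate the change of dim genes. A feature was called at a Benjamini-Hochberg adjusted p under 0.05 in limma. For the probe set that stands for its gene, the brightest on average, the adjusted p comes from the fit over 11865 genes, and for other probe sets from the fit over 24655 probe sets. All 7 genes and 23 of the 26 probe sets were bright enough to be tested. Where groups are said not to overlap, this describes the arrays only. With so few arrays in a group, separation often arises without any change. The share of all features with separated groups was not counted. FGFR3 204379_s_at, for example, was separated with Zalypsis in each line and between the untreated lines, and was called in none of these comparisons.

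Marker genes and labelling controls differed between the groups, and RNA quality differed on 1 array. Of 10 plasma cell markers, 9 were called lower and 1 higher in untreated OPM1-labelled cells than in untreated MM1S, beside 35.2% and 28.6% of all tested genes. The summed signal of these markers was 8001 and 8728 on the untreated OPM1-labelled arrays, against 42180 and 39870 on the untreated MM1S arrays, and SDC1, which encodes the plasma cell antigen CD138, averaged 9.71 against 3194. Among the other plasma cell markers, POU2AF1 averaged 2681 against 4760, JCHAIN 2031 against 10641 and XBP1 1735 against 4499. CD38 was the 1 called higher, at 489 against 54.2. Of 9 B cell markers, 8 were called higher and BLNK lower (424 against 588, log2 -0.45). PAX5, EBF1, MS4A1, SPIB and CD79A lay under the filter signal of 27.3 in MM1S and were tested only through the OPM1-labelled arrays. They could hardly have been called lower. The B cell markers summed to 10844 and 12118 against 1018 and 899, and the pre-B cell markers to 3014 and 4253 against 86.2 and 68.9. Most plasma cell markers were therefore lower than in MM1S but still above the array-wide median, also MZB1 (664), IRF4 (318), TNFRSF17 (238), SLAMF7 (101) and PRDM1 (98.6). SDC1 lay below that median. The identity of the OPM1-labelled cells was not tested, and OPM1 is used here as a label only. With Zalypsis the plasma cell sum was 4842 and 4349 in OPM1-labelled cells and 30908 and 29510 in MM1S, and the B cell sum was 5949 and 4949 in OPM1-labelled cells and 848 and 766 in MM1S. T cell, myeloid and epithelial markers each summed to no more than 191 on any array and stromal markers to no more than 244. The 2 erythroid markers on the array summed to 25.4 and 29.4 on the untreated OPM1-labelled arrays, against 611 and 457 on the untreated MM1S arrays, and with Zalypsis to 22.7 and 25.1 in OPM1-labelled cells and 447 and 438 in MM1S. HBB, beta globin, averaged 11.4 in untreated OPM1-labelled cells, against 521 in untreated MM1S (log2 -3.66). The poly-A controls, bacterial transcripts added before labelling, had a geometric mean of 1862 and 1349 on the treated OPM1-labelled arrays and 299.7 and 448 on the untreated ones, against 19.7 to 25.7 in MM1S. The 3′ to 5′ ratio of ACTB was 5.80 on OPM1 control 1 and 1.78 to 2.62 elsewhere, and that of GAPDH 2.26 and 0.963 to 1.06. The part of these differences in the results below was not tested, and fewer cells of a type cannot be told apart from less RNA per cell.

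FGFR3 was close to the array-wide median in untreated OPM1-labelled cells and was not called different from MM1S. Probe set 204379_s_at read 26.9 and 20.9 on the untreated OPM1-labelled arrays, against 41.7 and 29.2 on the untreated MM1S arrays. Both OPM1-labelled values lay below both MM1S values. The log2 difference was -0.27 ± 0.14 (SE, adjusted p = 0.115 in limma), and it was not called under any of 16 alternative settings. The other FGFR3 probe set, 204380_s_at, was too dim to be tested, with 9.68 and 9.72 in untreated OPM1-labelled cells and 4.34 and 3.09 in untreated MM1S.

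NSD2, which t(4;14) raises where it is present, was lower in untreated OPM1-labelled cells than in untreated MM1S. Probe set 209054_s_at read 638 and 791 against 1635 and 1645, a log2 difference of -1.17 ± 0.15 (2.25-fold lower, adjusted p = 8.1e-07 in limma). The groups did not overlap. Of the 6 NSD2 probe sets, 4 were called lower, with log2 differences from -1.68 to -0.35, beside 31.4% of all tested probe sets called lower. Probe sets 222777_s_at (-0.17, adjusted p = 0.391) and 222778_s_at (-0.01, adjusted p = 0.937) were not called. The first of these read 190 and 227 against 257 and 219, which overlapped. The weakest call, 223472_at, had an adjusted p of 0.0455 and held under 5 of 15 alternatives.

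Genes described with t(4;14) myeloma were also low. Of 5 tested, 4 were lower in untreated OPM1-labelled cells and 0 were higher, with a median log2 difference of -3.99 beside -0.05 for all tested genes, of which 35.2% were lower. DSG2, a desmosomal cadherin, averaged 11.9 ± 3.44 against 669 ± 79.3 (SD, n = 2 each, log2 -3.99), and SERPINE2, a protease inhibitor, averaged 8.05 against 854 (-4.45). CCND2, cyclin D2, averaged 8.20 against 5667 (-7.15). DSG2, SERPINE2 and CCND2 lay under the filter signal of 27.3 in OPM1-labelled cells and were tested only through their MM1S arrays. They could hardly have been called higher, so the count of lower genes is not independent support. JAM3 was not called, at 39.6 against 41.5 (log2 -0.04, adjusted p = 0.86). All 3 tested genes described with t(14;16) were lower in OPM1-labelled cells and high in MM1S: MAF averaged 5.69 against 4668 (log2 -6.96), the integrin gene ITGB7 145 against 13776 (-6.31), and the third was CCND2. MAF was likewise tested only through its MM1S arrays.

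**Figure D1:**
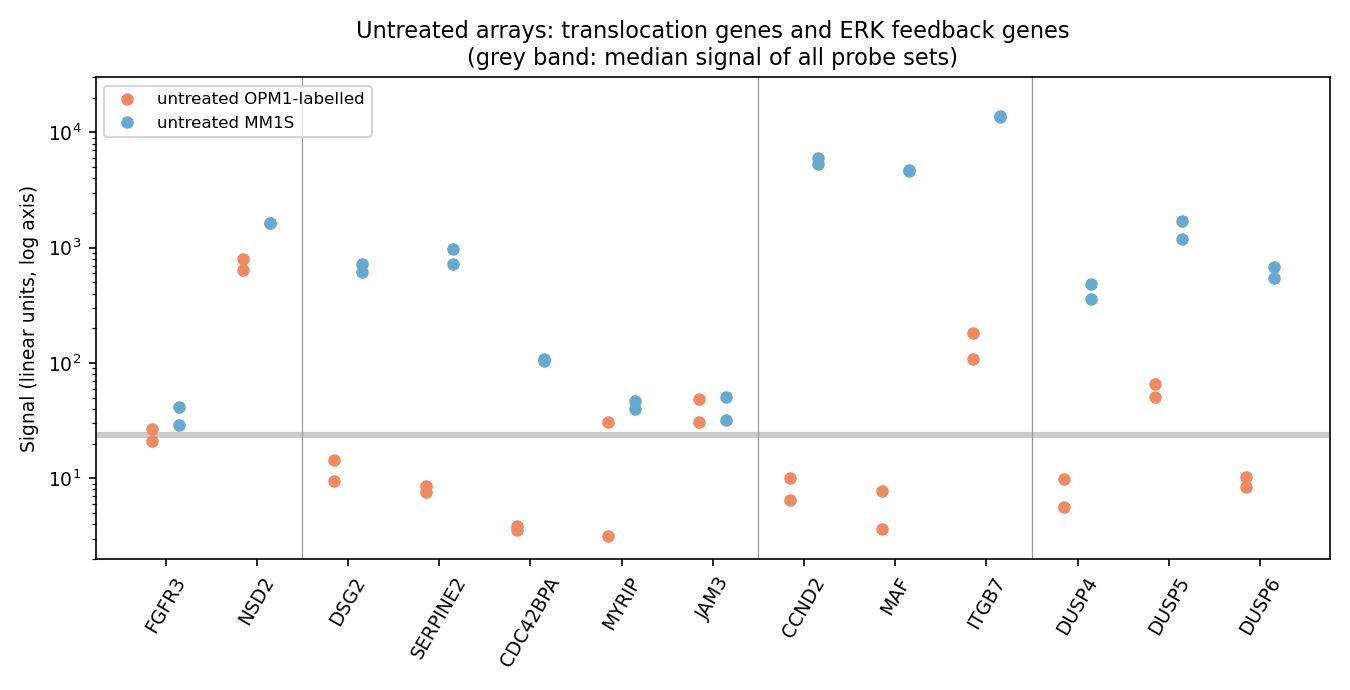
Signal on the 2 untreated arrays of each line (points, log axis) for FGFR3, NSD2, genes described with t(4;14) (DSG2 to JAM3), CCND2 with the t(14;16) genes MAF and ITGB7, and phosphatases induced by ERK signalling (DUSP4 to DUSP6). FGFR3 lies near the grey band of median signals in both lines, NSD2 lies lower in OPM1-labelled cells, and MAF averaged 5.69 in OPM1-labelled cells and 4668 in MM1S.

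FGF receptors act through ERK, whose activity induces its own inhibitors, among them the dual-specificity phosphatases and Sprouty proteins. Of 12 tested feedback and target genes, 8 were lower in untreated OPM1-labelled cells and 0 were higher, with a median log2 difference of -1.08, beside 35.2% lower over all tested genes. With quantile normalization 5 of 11 were lower and 1 higher, with a median of -0.30. DUSP6, a phosphatase of ERK, averaged 9.33 ± 1.24 against 617 ± 95.3 (SD, n = 2 each, log2 -3.97), DUSP5 57.8 against 1443 (-4.02) and DUSP4 7.71 against 420 (-3.50). DUSP4, DUSP6 and CCND1 (6.67 against 48.7) lay under the filter signal of 27.3 in OPM1-labelled cells and were tested only through MM1S. They could hardly have been called higher. SPRY4 and ETV5 were not called, with log2 differences of 0.10 and 0.38. Of the other FGF receptors, FGFR1 averaged 42.8 against 71.2 (log2 -0.47, adjusted p = 0.0151) and FGFR4 45.1 against 94.6 (-0.72, adjusted p = 5.3e-05), and FGFR2 and FGFRL1 were too dim to be tested. FGFRL1, a receptor without a kinase domain, averaged 55 against 10.6. Over 17 alternatives these genes and the co-receptor gene KLB gave 0 to 2 lower and 0 to 2 higher.

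Along 4p16.3, TACC3 and LETM1 were measured with 24 other tested genes within 1 Mb of the members. TACC3 read 399 and 381 in untreated OPM1-labelled cells, against 987 and 731 in untreated MM1S, without overlap (log2 -1.06 ± 0.16, adjusted p = 4.9e-06). LETM1 gave opposite directions: 222006_at read 130 and 169 against 248 and 182 (log2 -0.44, adjusted p = 0.0182), while 218939_at read 140 and 108 against 79.2 and 62.8 (log2 0.60, adjusted p = 4.3e-03). The first of these calls was lost under 6 of 17 alternatives, among them leaving out OPM1 control 1 (log2 -0.29) or MM1S control 1 (log2 -0.24). Of the 24 neighbours, 10 were lower and 5 higher, beside 35.2% lower and 28.6% higher over all tested genes. Their median log2 difference was -0.05, the same as for all tested genes. NICOL1 averaged 29.6 against 1088 (log2 -4.18), the corepressor CTBP1 670 against 2467 (-1.83) and the cytoskeletal gene ADD1 490 against 1701 (-1.73). DGKQ, a diacylglycerol kinase, averaged 204 against 3.01 (2.75), and the polymerase gene POLN 78.9 against 8.09 (1.47).

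**Figure D2:**
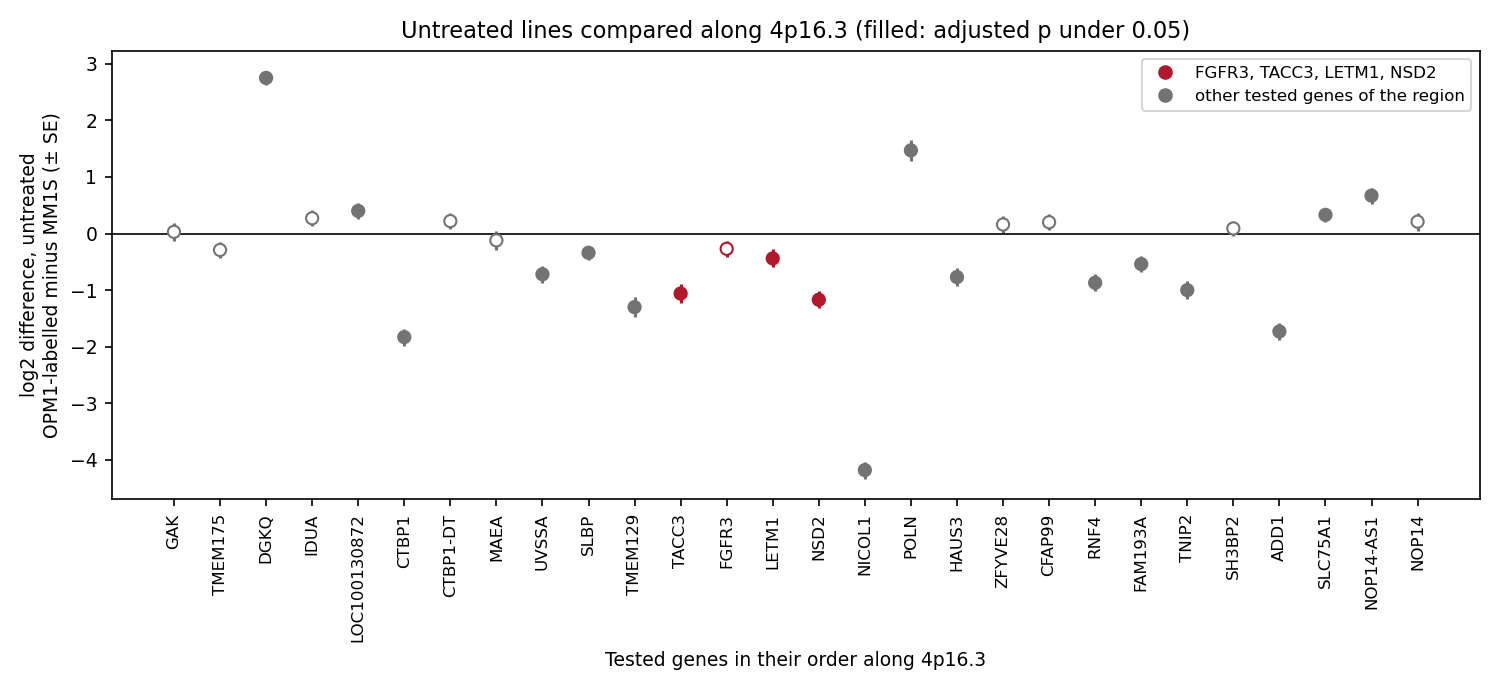
Log2 difference (± SE) between untreated OPM1-labelled and untreated MM1S cells for each tested gene in its order along 4p16.3. Of the 4 members, TACC3, LETM1 and NSD2 lie below 0 and are filled (called), and FGFR3 (-0.27) is open.

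Across the 7 members, 5 were called between the untreated lines, 4 lower and 1 higher in OPM1-labelled cells, while 63.7% of all tested genes were called, 35.2% lower and 28.6% higher. Of the 23 probe sets 14 were called, 9 lower and 5 higher, beside 56.8% of all tested probe sets, 31.4% lower and 25.4% higher. NSD1, NSD3 and SETD2 were the rest. NSD1 243612_at read 263 and 226 against 152 and 186 (log2 0.46 ± 0.15, adjusted p = 0.0109), and all 4 NSD1 probe sets were called higher, by 0.46 to 0.93. NSD3 222544_s_at read 560 and 644 against 848 and 801 (log2 -0.44, adjusted p = 0.0143), with 2 of 6 tested NSD3 probe sets called lower. The NSD1 call of 243612_at was lost without OPM1 control 1 (log2 0.37) or MM1S control 1 (0.34), and with poly-A scaling. The NSD3 call was lost under 5 of 17 alternatives: without OPM1 control 1 (-0.34), without MM1S control 1 (-0.40), with poly-A scaling (-0.44), with the mean of probe sets (-0.17) and with shared probe sets left out (-0.08). SETD2 212493_s_at was not called (log2 -0.27, adjusted p = 0.0787), and SETD2 215038_s_at was called lower (-0.80, adjusted p = 4.3e-04).

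NSD2 fell with Zalypsis in both lines, more deeply in OPM1-labelled cells. Probe set 209054_s_at read 116 and 101 in treated OPM1-labelled cells, against 638 and 791 in untreated ones, and 760 and 832 in treated MM1S, against 1635 and 1645 in untreated MM1S. No treated array overlapped the untreated arrays of its line, which is weak support with so few arrays in a group. The change was -2.40 ± 0.15 on the log2 scale in OPM1-labelled cells (5.29-fold, adjusted p = 7.5e-12 in limma) and -1.01 ± 0.15 in MM1S (2.02-fold, adjusted p = 1.6e-05). The responses differed by -1.39 ± 0.22 (adjusted p = 2.0e-05).

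All 6 NSD2 probe sets were called lower with Zalypsis in OPM1-labelled cells, beside 35.9% of all tested probe sets, and 5 of 6 in MM1S, beside 19.5%. In OPM1-labelled cells the change ranged from -2.40 to -0.51, and in MM1S from -1.01 to -0.14. Probe set 209053_s_at read 44.1 and 36.2 in treated and 290 and 292 in untreated OPM1-labelled cells (log2 -2.16, adjusted p = 1.8e-08), and 426 and 459 in treated and 988 and 812 in untreated MM1S (-0.97, adjusted p = 1.5e-04). Its responses differed as well (-1.20 ± 0.20, adjusted p = 4.1e-04), whereas those of the other 4 were not called different, at -0.37 to 0.31. Of these, 222777_s_at changed by -0.95 in OPM1-labelled cells and -0.82 in MM1S, and 209052_s_at by -0.61 and -0.92. The exception in MM1S was 223472_at, at 58.7 and 48.8 in treated and 68.1 and 56.8 in untreated cells (log2 -0.14, adjusted p = 0.503). It is the only NSD2 probe set that the design does not mark as shared between transcripts, so with shared sets left out NSD2 was not called in MM1S, and the responses of the lines were not called different (log2 -0.37, adjusted p = 0.141).

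SETD2 fell in both lines. Probe set 212493_s_at read 43.5 and 45.2 in treated OPM1-labelled cells, against 278 and 281 in untreated ones (log2 -2.03 ± 0.13, 4.08-fold, adjusted p = 8.6e-12). In MM1S it read 164 and 165 with Zalypsis, against 375 and 314 without (log2 -0.94 ± 0.13, 1.91-fold, adjusted p = 5.5e-06). Treated and untreated arrays stood apart in each line, and the fall was larger in OPM1-labelled cells by -1.09 ± 0.19 (adjusted p = 5.0e-05). SETD2 215038_s_at changed by -1.67 in OPM1-labelled cells and -1.00 in MM1S, with a called difference of -0.67 (adjusted p = 0.0235). That difference was lost under 7 of 15 alternatives. The third probe set, 220946_s_at, was too dim to be tested, at 14.5 to 26.5 on the 8 arrays.

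NSD1 moved in opposite directions by probe set. Its brightest, 243612_at, rose to 421 and 431 in treated OPM1-labelled cells, against 263 and 226 in untreated ones (log2 0.73 ± 0.15, adjusted p = 2.1e-04), and to 501 and 410 in treated MM1S, against 152 and 186 (1.28 ± 0.15, adjusted p = 5.4e-07). The groups did not overlap in either line. In OPM1-labelled cells this rise became a fall of -1.08 when arrays were scaled to the poly-A controls. Another, 219084_at, fell to 25.6 and 23.6 in treated OPM1-labelled cells, against 130 and 150 (log2 -1.60, adjusted p = 1.1e-07), and to 46.3 and 33.1 in treated MM1S, against 81.2 and 80.9 (-0.66, adjusted p = 1.2e-03). Probe set 235760_at was called higher in MM1S (0.92, adjusted p = 1.0e-04) and not called in OPM1-labelled cells (0.29, adjusted p = 0.0715). Probe set 225654_at was called lower in OPM1-labelled cells (-0.87, adjusted p = 8.6e-04) and not called in MM1S (-0.46, adjusted p = 0.071). The mean of the 4 probe sets gave -0.36 in OPM1-labelled cells and 0.27 in MM1S. The transcript regions that the probe sets read were not analysed here.

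NSD3 fell in OPM1-labelled cells, and in MM1S its probe sets were split. Its brightest, 222544_s_at, read 382 and 390 in treated and 560 and 644 in untreated OPM1-labelled cells (log2 -0.60 ± 0.15, adjusted p = 1.3e-03), a call lost with quantile normalization (-0.21). In MM1S it read 732 and 811 with Zalypsis and 848 and 801 without, which overlapped (-0.09, adjusted p = 0.669). Probe set 225318_at fell to 46.4 and 59.5 in treated OPM1-labelled cells, against 333 and 290 (-2.02, adjusted p = 2.3e-08), and to 217 and 203 in treated MM1S, against 337 and 324 (-0.58, adjusted p = 5.2e-03). Its responses differed by -1.43 ± 0.20 (adjusted p = 7.3e-05). In all, 5 of 6 tested NSD3 probe sets were called lower in OPM1-labelled cells and 3 of 6 in MM1S, among them 238496_at in both (-1.20 and -1.33). Of all tested probe sets, 35.9% and 19.5% were called lower. The OPM1-labelled call of 218173_s_at (-0.34, adjusted p = 0.0427) held under 7 of 15 alternatives.

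**Figure D3:**
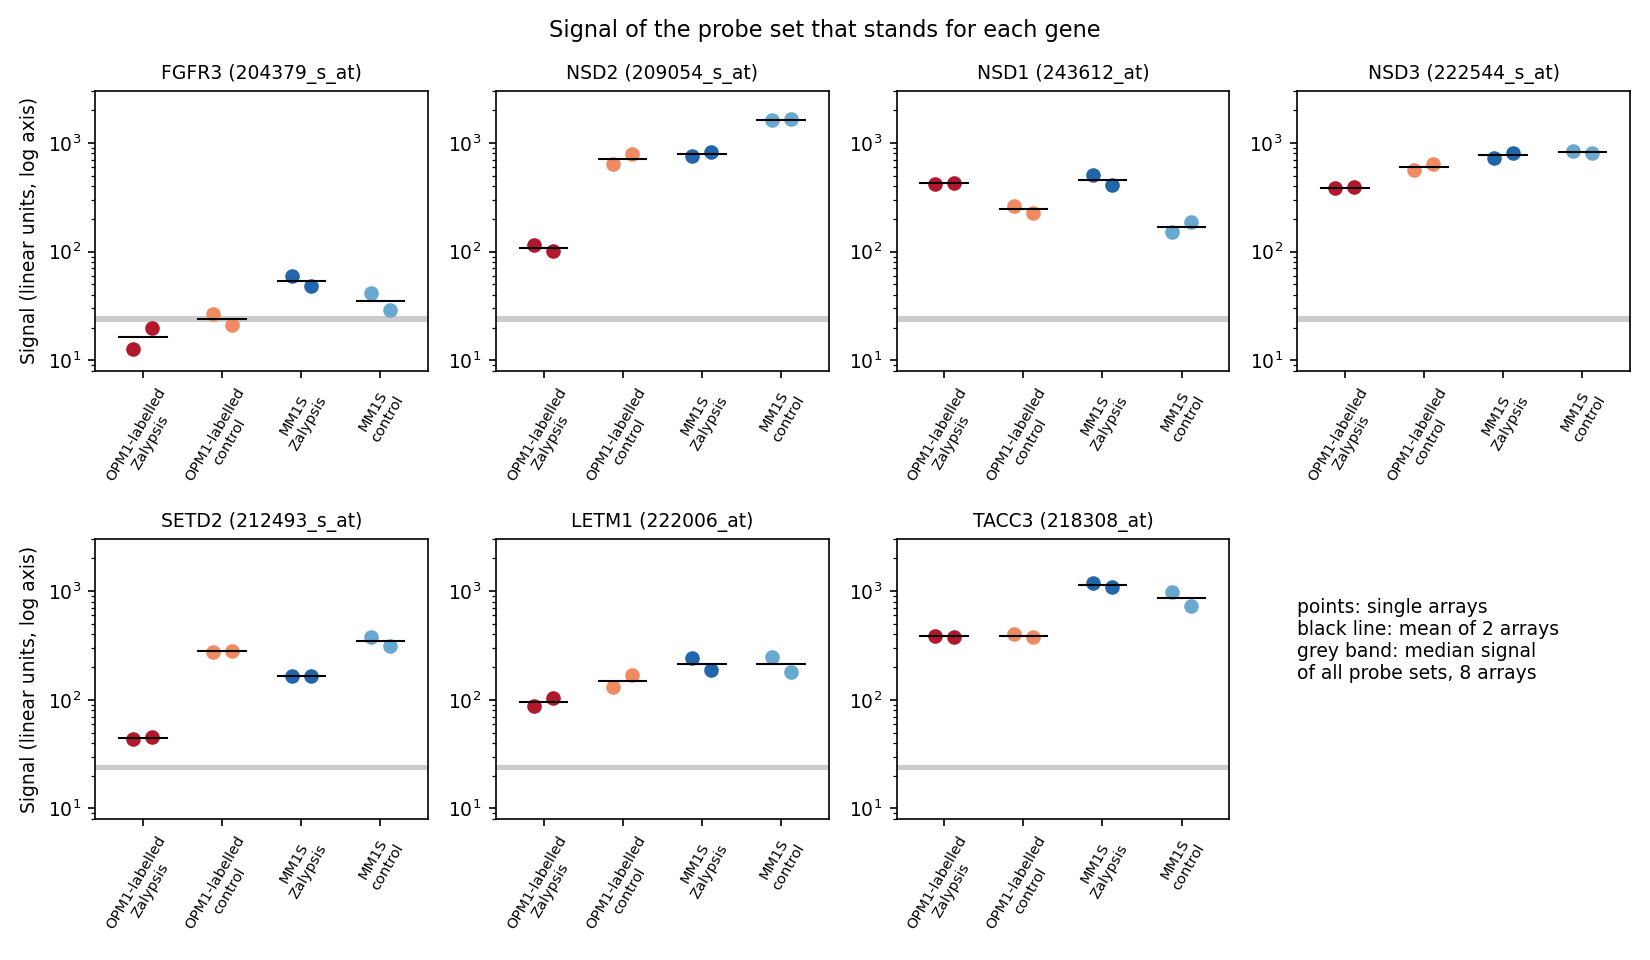
Signal of the probe set that stands for each member on every array (points, log axis), with the mean of 2 arrays as a line and the median of all probe sets as a grey band. NSD2 and SETD2 are lower with Zalypsis in both lines, NSD1 is higher, and FGFR3 stays near the grey band on the OPM1-labelled arrays.

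FGFR3 and TACC3 were called in neither line with Zalypsis. FGFR3 204379_s_at read 12.6 and 19.8 in treated and 26.9 and 20.9 in untreated OPM1-labelled cells (log2 -0.22 ± 0.14, adjusted p = 0.202), and 59.5 and 48.3 in treated and 41.7 and 29.2 in untreated MM1S (0.35 ± 0.14, adjusted p = 0.0617). The treated values lay below the untreated ones in OPM1-labelled cells and above them in MM1S, and the responses were called different (-0.57 ± 0.20, adjusted p = 0.0272). That call was lost under 5 of 16 alternatives, among them leaving out any of OPM1 Zalypsis 1, OPM1 control 1, MM1S Zalypsis 1 or MM1S control 2. TACC3 read 386 and 379 in treated and 399 and 381 in untreated OPM1-labelled cells (log2 -0.03 ± 0.16, adjusted p = 0.903), which overlapped. In MM1S it read 1184 and 1084 with Zalypsis and 987 and 731 without (0.40 ± 0.16, adjusted p = 0.0513), and it was called there under 8 of 17 alternatives.

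LETM1 was called lower with Zalypsis in OPM1-labelled cells by 2 of its 3 probe sets and in MM1S by 0. Of all tested probe sets, 35.9% and 19.5% were called lower. Probe set 222006_at read 88.5 and 104 with Zalypsis, against 130 and 169 (log2 -0.49 ± 0.16, adjusted p = 8.3e-03), and 218939_at read 61 and 53.7, against 140 and 108 (-0.80, adjusted p = 4.4e-04). The first call was lost with quantile normalization (-0.05) and without OPM1 Zalypsis 1 or OPM1 control 2. In MM1S 222006_at read 240 and 189 with Zalypsis and 248 and 182 without, which overlapped (0.00 ± 0.16, adjusted p = 0.993). The difference between the lines' responses was not called for either probe set (adjusted p = 0.0704 and 0.0961).

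With Zalypsis, 5 of the 7 members were called in OPM1-labelled cells, 1 higher and 4 lower, beside 63.9% of all tested genes (25.4% higher, 38.5% lower). In MM1S 3 were called, 1 higher and 2 lower, beside 37.6% (16.4% higher, 21.1% lower). For the difference of responses 4 were called, all lower, beside 46.6% (31.2% lower). By probe set, 18 of 23 were called in OPM1-labelled cells (1 higher, 17 lower, beside 57.9%) and 13 in MM1S (2 higher, 11 lower, beside 32.2%). Of all tested probe sets, 35.9% were called lower and 22% higher in OPM1-labelled cells, and 19.5% lower and 12.6% higher in MM1S. The median change of the 23 was -0.80 in OPM1-labelled cells and -0.46 in MM1S, beside -0.06 and 0.01 for all tested probe sets. For the difference of responses 9 probe sets were called, all lower, beside 38.6% (26.1% lower). Probe sets of 1 gene share its transcripts and are not independent. After quantile normalization the probe-set split was 3 higher and 14 lower in OPM1-labelled cells. Of all tested probe sets 65.8% were called there, 45% of those lower. For genes the split was 2 and 2 in OPM1-labelled cells and 3 and 2 in MM1S. Of all tested genes 73.2% and 44.5% were called, 42.8% and 42.4% of those lower. After scaling to the poly-A controls, all 24 tested member probe sets were lower in OPM1-labelled cells. Of all tested probe sets 89.6% were called, 99.5% of those lower, with a median of -1.15. Of all tested genes 91.1% were called there, 99.5% of those lower, with a median of -1.42.

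**Figure D4:**
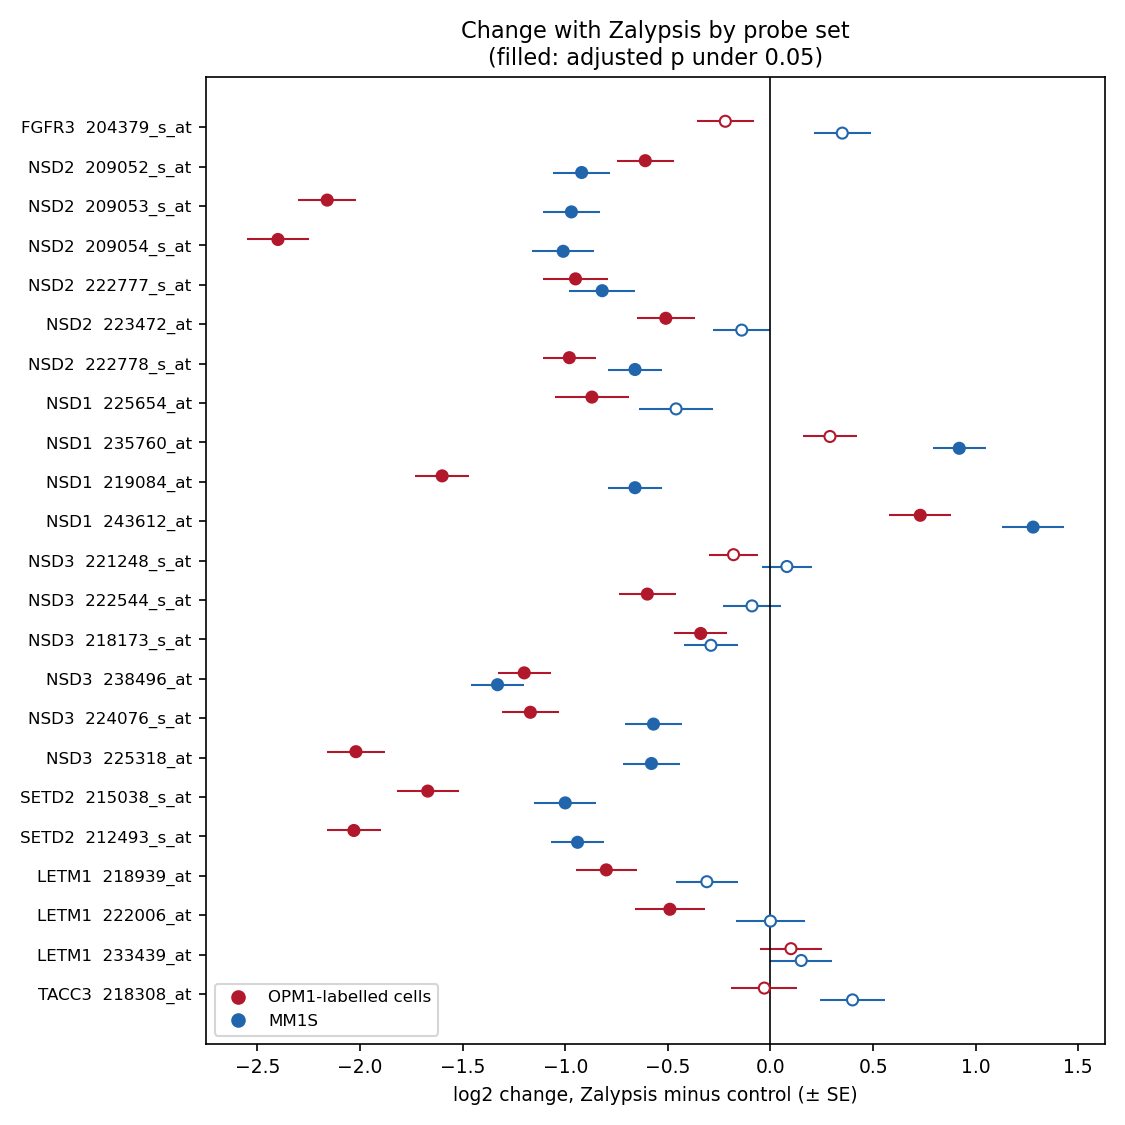
Log2 change with Zalypsis (± SE) of the 23 tested probe sets in OPM1-labelled cells (red) and MM1S (blue), with called changes filled. All NSD2 and SETD2 points lie left of 0, and NSD1 points lie on both sides.

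Gene span moved with the change, though not evenly. SETD2 spans 148 kb in RefSeq, NSD1 168 kb, NSD3 113 kb and NSD2 111 kb, against 44.7 kb for LETM1, 24.5 kb for TACC3, 15.6 kb for FGFR3 and a median of 28.3 kb over the tested genes. Of the 1255 tested genes between 100 and 200 kb, 70% were called lower in OPM1-labelled cells and 64.2% in MM1S, with median log2 changes of -1.27 and -0.66. Between 10 and 30 kb these shares were 25.2% and 6.68%, with medians of 0.09 and 0.14. Above 200 kb they were 56.4% and 61.2%, with medians of -0.67 and -0.81, so that in OPM1-labelled cells the median was nearer 0 than in the band below. By the probe set that stands for the gene, NSD2 and SETD2 lay below the median of their span band in both lines, and NSD3 (-0.60 and -0.09) and NSD1 above it. Other probe sets of these genes lay on the other side: in OPM1-labelled cells NSD2 222777_s_at (-0.95), 222778_s_at (-0.98), 209052_s_at (-0.61) and 223472_at (-0.51) were above the band's median, and NSD1 219084_at (-1.60) and NSD3 225318_at (-2.02) below it. In MM1S NSD2 223472_at (-0.14) was above it and NSD3 238496_at (-1.33) below. The part of gene span in the members' changes was not tested.

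**Figure D5:**
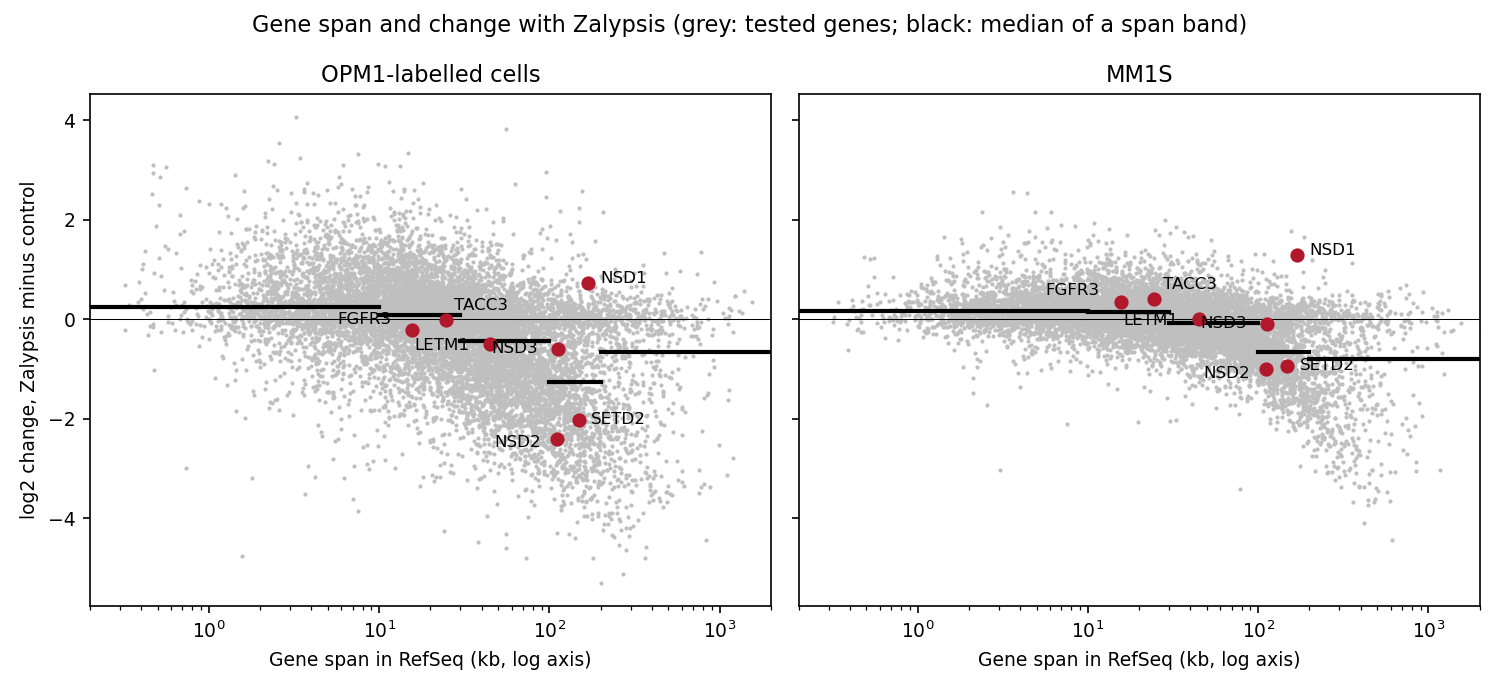
Log2 change with Zalypsis against gene span (log axis) for the tested genes (grey) and the members (red), in OPM1-labelled cells on the left and MM1S on the right, with the median of each span band in black. In the band from 100 to 200 kb the medians are -1.27 and -0.66, and NSD1 stands above both.

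Other genes of H3K36 methylation changed in both directions. Over all tested genes 38.5% were lower and 25.4% higher with Zalypsis in OPM1-labelled cells, and 21.1% and 16.4% in MM1S. Among the demethylases, 3 of 6 tested were lower with Zalypsis in OPM1-labelled cells and 0 were higher (3 after quantile normalization), and 3 were lower and 1 higher in MM1S (0 higher after poly-A scaling). KDM4B averaged 83.2 ± 2.79 in treated and 474 ± 4.96 in untreated OPM1-labelled cells (SD, n = 2 each, log2 -2.14), and 48.1 against 439 in MM1S (-2.56). KDM4C changed by -2.11 and -2.43, while KDM2B, which removes the dimethyl mark, changed by -2.60 in OPM1-labelled cells and was not called in MM1S (-0.35, adjusted p = 0.0634), with a called difference of -2.26. Another 4 tested genes were listed by name as possible H3K36 methyltransferases, and whether their proteins act on H3K36 was not checked here. Of these, SMYD2 (-2.12), SETD5 (-1.55) and SETD3 (-0.59) were lower in OPM1-labelled cells. SETMAR was higher (0.32, adjusted p = 0.0295 in limma), with 0 higher after poly-A scaling. In MM1S SETD5 was lower (-0.72) and SETMAR higher (0.54) (0 higher after poly-A scaling).

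Of 17 tested proteins that bind methylated H3K36, 8 were lower and 4 higher in treated OPM1-labelled cells (0 higher after poly-A scaling), and 4 lower and 4 higher in MM1S (2 and 0 after poly-A scaling, 3 and 6 after quantile normalization). The Polycomb-linked readers PHF19 (-1.86) and MTF2 (-1.72) and the chromatin tether PSIP1 (-1.68) had the deepest falls in OPM1-labelled cells, and MSL3 (1.33), BRPF1 (1.05) and PHF1 (0.81) the largest rises. In MM1S ZMYND11 (-1.00) and PHF1 (0.94) led. Of 10 tested factors that travel with SETD2 on elongating RNA polymerase II, 3 were lower and 3 higher in treated OPM1-labelled cells: IWS1 (-2.35), CDC73 (-2.02) and RTF1 (-1.65), against SUPT6H (0.99), PAF1 (0.92) and CTR9 (0.52). After poly-A scaling 0 were higher, and after quantile normalization 5 were higher and 3 lower. In MM1S CDC73 (-0.99) and RTF1 (-0.58) were lower and PAF1 (0.61) and CTR9 (0.48) higher (2 lower and 0 higher after poly-A scaling). The medians of these lists in OPM1-labelled cells were -0.25 and -0.02, beside -0.07 for all genes. Over all tested genes the shares were 38.5% lower and 25.4% higher there, and 21.1% and 16.4% in MM1S.

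Adaptors and effectors of FGF receptors were mostly lower in treated OPM1-labelled cells, 15 of 19 tested against 3 higher (0 after poly-A scaling), with a median of -0.90. Over all tested genes 38.5% were lower, with a median of -0.07. The phospholipase gene PLCG2 (-3.57), the exchange factor gene SOS1 (-3.19) and the docking protein gene GAB1 (-2.72) had the deepest falls, and SHC1 (0.93), FRS3 (0.49) and HRAS (0.48) rose. In MM1S 9 were lower and 1 higher, beside 21.1% lower over all tested genes, with PLCG2 at -1.84, GAB2 at -1.65, GAB1 at -1.55 and SHC1 at 0.57. Of the 12 feedback and target genes, 3 were lower in OPM1-labelled cells, SPRED2 (-1.70), SPRED1 (-0.91) and CBL (-0.85), and 4 in MM1S. After quantile normalization 3 were also higher in OPM1-labelled cells, and 6 were lower in MM1S. DUSP6 was not called in either line (log2 -0.15 and -0.24).

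TACC3 partners and other mitotic spindle genes split in OPM1-labelled cells, with 10 of 20 lower and 7 higher, and 5 lower and 1 higher in MM1S. Over all tested genes 38.5% were lower and 25.4% higher in OPM1-labelled cells, and 21.1% and 16.4% in MM1S. In OPM1-labelled cells the balance of the 20 turned to 7 lower and 9 higher after quantile normalization. After poly-A scaling all 20 were lower there, where 91.1% of all tested genes were called, 99.5% of those lower. In MM1S poly-A scaling left 2 lower and 0 higher. CKAP5, the microtubule polymerase that TACC3 recruits, averaged 232 ± 29.6 in treated and 1473 ± 68.2 in untreated OPM1-labelled cells (SD, n = 2 each, log2 -2.51), and 835 against 1288 in MM1S (-0.61). The checkpoint kinase gene BUB1B fell by 3.10 on the log2 scale in OPM1-labelled cells, KIF11, a spindle motor gene, changed by -2.38, and CDC20 (1.28) and KIF20A (1.19) rose. Among the 4p16.3 neighbours, 9 of 24 were lower and 6 higher in treated OPM1-labelled cells, and 5 and 4 in MM1S. These counts were near the shares over all tested genes. Quantile normalization gave 8 lower and 11 higher in OPM1-labelled cells, and 5 and 7 in MM1S. Poly-A scaling left 0 higher in OPM1-labelled cells, and 2 lower and 1 higher in MM1S. FAM193A changed by -2.48 and -1.94, and HAUS3, an augmin subunit gene, by 2.11 and 1.54.

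The genes whose log2 values followed each member most closely over the 8 arrays were PPP1R16B (Pearson r = 0.999) and KLHL5 (0.998) for NSD2, SLC30A9 (0.999) and FAM107B (0.999) for SETD2, and CERS2 (0.998) and NINJ1 (0.997) for TACC3. For NSD3 they were NDUFAF8 (0.996) and SCAMP5 (0.993), for LETM1 MSRB1 (0.992) and ACOT8 (0.990), for FGFR3 RNASEH2C (0.987) and ACD (0.986), and for NSD1 FAM43A (0.983) and FAM8A1 (0.981). The 8 arrays share 4 groups, and such values are common: 1390 tested genes had r over 0.9 with NSD2 and 1410 with SETD2, but 98 with NSD1.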

How the data were processed

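RNA of 8 samples was measured on HG-U133 Plus 2.0 arrays. The authors deposited a linear intensity per array for all 54675 probe sets, computed in dChip per the series' design text. How dChip was set, and its version, is not given in the sources used here. Groups come from the sample titles. Arrays have no read depth, and their number limits the precision.

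The authors' normalization was kept, and 32 was added before taking log2. The 62 control probe sets and the probe sets with several symbols (1801) or none (11721) were left out. The brightest probe set by mean log2 value stood for a gene. The 40% of features with the lowest mean were left out, which kept 11865 genes and 24655 probe sets. A model with 1 mean per group was fitted to all 8 arrays (limma 3.58.1, R 4.3.3, eBayes with a trend, 4 residual degrees of freedom). P-values were adjusted by Benjamini-Hochberg over all features of a fit within a contrast. The untreated lines share their control arrays with the treatment contrasts. The closing section gives the alternatives tried. In poly-A scaling each array was scaled relative to the untreated arrays of its own line. It therefore leaves the mean difference between the untreated lines nearly in place.

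The members and gene lists were chosen with earlier results of these data known. Every member and probe set was described, and from each list up to 3 called genes a direction with the largest change, with the markers and the 2 genes most like each member. Genes named beyond this, such as JAM3, SPRY4, ETV5 and other genes not called, were chosen after their values were seen. The labels name no pairing of arrays, and the main fit used none. Deviations of same-numbered arrays correlated at 0.209 in OPM1-labelled cells and 0.212 in MM1S. With 2 pairs a line, these values cannot settle whether same-numbered arrays belong together. A replicate block was therefore among the alternatives, and it changed the counts of members called, as the closing section gives. Data were simulated with 200 of 11865 genes altered. The fit recovered 100% of changes of 1 (log2) in the OPM1-labelled contrast and 99.9% in that of MM1S. Of changes of 0.5 it recovered 45.6% and 49.4%. The shares of false calls were 6.11% and 6.43%, at an adjusted p cutoff of 0.05. On the measured arrays 63.9% and 37.6% of all tested genes were called, far more than were altered here. The simulated rates therefore need not hold for the measured data. Promoter sequences and gene spans come from RefSeq, and no genome was used here.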

Additional observations from a re-analysis of the deposited data

Results flagged for a closer look

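The response to Zalypsis differed between OPM1-labelled cells and MM1S for 10 member probe sets, by the limma test of the difference itself (OPM1-labelled minus MM1S, log2). This count joins 2 fits. In the fit over probe sets 9 of 23 were called, near the 38.6% of all tested probe sets, and in the fit over genes 46.6% of all tested genes were called. For NSD2 it was -1.39 by 209054_s_at and -1.20 by 209053_s_at. For SETD2 it was -1.09 by 212493_s_at and -0.67 by 215038_s_at, and for NSD3 -1.43 by 225318_at and -0.59 by 224076_s_at. For NSD1 it was -0.94 by 219084_at, -0.62 by 235760_at and -0.55 by 243612_at, the last called in the fit over genes (adjusted p = 0.0405) and not in that over probe sets (adjusted p = 0.0606). For FGFR3 it was -0.57 by 204379_s_at, whose signals lay between 12.6 and 59.5. Several of these calls were lost under alternatives: NSD1 243612_at in the fit over genes under 7 of 17, NSD1 235760_at under 5 of 15 (values as small as -0.14), NSD3 224076_s_at under 7 of 15, SETD2 215038_s_at under 7 of 15 and FGFR3 under 5 of 16. For 235760_at they were lost without OPM1 Zalypsis 1, OPM1 control 1, MM1S Zalypsis 2 or MM1S control 1, and for 224076_s_at without OPM1 Zalypsis 1, OPM1 control 1, either MM1S Zalypsis array or MM1S control 2. For 243612_at they were lost without either OPM1 Zalypsis array, OPM1 control 1, MM1S Zalypsis 1 or MM1S control 1. NSD2 lost its call with shared probe sets left out (-0.37). All 10 are below 0, as are 67% of the differences called over all genes.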

How the results depend on the processing

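The NSD2 and SETD2 falls kept their direction under all 17 alternatives in both lines, and with shared probe sets left out NSD2 lost its call in MM1S and that of the difference of responses (-0.37). Members called in MM1S, 3 as reported, were 5 with a pseudocount of 64, with quantile normalization, with the replicate block and with the mean of probe sets (6 tested). Over all tested genes 37.6% were called in MM1S as reported and 44.5% with quantile normalization. In OPM1-labelled cells 5 became 2 when the call was a change over 2-fold with no test. For the difference of responses 4 became 2 with no filter, 7 with poly-A scaling and 7 with the replicate block. With poly-A scaling 84.6% of all tested genes were called for this difference, 97.8% of those lower. Between the untreated lines 5 became 2 with poly-A scaling, where 47.7% of all tested genes were called, and 2 over 2-fold. That scaling was relative to each line's own untreated arrays, so it did not test the labelling difference between the lines. Under it NSD2 stayed at -1.17 and TACC3 at -1.06. By probe set, the difference had 20 of 24 with poly-A scaling, beside 78.8% of all tested probe sets, and the untreated lines 7 over 2-fold. Shares over all tested features were not set beside the remaining counts of this section. Those counts describe the settings and are not results about the members.

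Leaving out 1 array gave 3 to 5 members in MM1S, 4 to 5 in OPM1-labelled cells, 2 to 5 for the difference and 2 to 6 between untreated lines. By probe set it gave 12 to 14, 16 to 19, 5 to 10 and 10 to 14. The members called in MM1S were 5 without MM1S control 1. For the difference 2 were left without OPM1 Zalypsis 1 or MM1S Zalypsis 1, and between untreated lines 2 without OPM1 control 1 or MM1S control 1.

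Values that changed sign were NSD1 in OPM1-labelled cells (-1.08 with poly-A scaling, -0.36 with the mean of probe sets), TACC3 there (0.36 with quantile normalization, 0.00 without OPM1 control 1) and LETM1 in MM1S (-0.19 with poly-A scaling, -0.15 without MM1S Zalypsis 1, -0.19 without MM1S control 2, -0.05 with the mean of probe sets). Leaving out 1 array gave LETM1 in MM1S from -0.19 to 0.20. The cause was not tested.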

Other observations

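Of 10 tested genes of cation transport and shape of the inner mitochondrial membrane, where LETM1 acts, 4 were lower and 2 higher with Zalypsis in OPM1-labelled cells and 3 were lower in MM1S. Over all tested genes 38.5% were lower and 25.4% higher in OPM1-labelled cells, and 21.1% were lower in MM1S. In OPM1-labelled cells the balance of the 10 turned to 3 lower and 4 higher after quantile normalization, and after poly-A scaling all 10 were lower. MICU2, a regulator of the calcium uniporter, averaged 159 in treated and 1217 in untreated OPM1-labelled cells (log2 -2.68), and 234 against 502 in MM1S (-1.00). OPA1, which fuses inner membranes, changed by -1.61 and -1.04 and the uniporter gene MCU by -0.60 and -0.84, while GHITM (0.44) and BCS1L (0.49) rose in OPM1-labelled cells.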
